A study of Homo sapiens with 6 samples.

Results

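The 10 genes described here encode cyclic nucleotide phosphodiesterases, the enzymes that break down the second messengers cyclic AMP (cAMP) and cyclic GMP (cGMP). They are PDE1A, PDE1C, PDE3A, PDE4A, PDE4B, PDE4D, PDE5A, PDE7B, PDE8A and PDE10A, taken by symbol from a deposited table of 58219 genes, and they were selected on their measured normalised counts at 30 h and 72 h, with the difference between these groups already known. Their change between the groups is therefore given as a description without a test. RNA came from IMR90, an established line of diploid fibroblasts of human lung, engineered with ER-RASG12V. In this fusion an oncogenic form of RAS is joined to the oestrogen receptor, so that 4-hydroxytamoxifen (4OHT) switches it on. All cells received 100 nM 4OHT, for 30 h (3 libraries, replicates A to C, called uncommitted controls in the labels) or for 72 h (3 libraries, called committed, meaning committed to senescence). The sample titles give the shorter time as 1.5 days, and the hours of the protocol and of the table's columns are used here. Both groups carry the construct and the drug, and no untreated library is among these samples, so time under RAS signalling and commitment cannot be told apart.

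A cell makes cAMP with adenylyl cyclases, which Gs-coupled receptors switch on, and cGMP with guanylyl cyclases. cAMP acts through protein kinase A, the EPAC exchange factors and the transcription factor CREB, and cGMP through protein kinase G, while phosphodiesterases end the signal and hold it to small regions of the cell. The PDE4, PDE7 and PDE8 families cleave cAMP, PDE5 and PDE9 cleave cGMP, and PDE1, PDE2, PDE3, PDE10 and PDE11 cleave both. In lung fibroblasts a rise of cAMP is known to restrain proliferation and collagen production, and PDE4 inhibitors are known as anti-inflammatory drugs.

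The libraries held 13221152 to 15703544 reads assigned to genes. Values are normalised counts, read counts scaled by the authors with DESeq2 size factors, and the 13315 genes that reached 10 normalised counts in 3 or more libraries were compared between 72 h and 30 h with limma on the log2(value + 1) scale. All 10 fibroblast markers were detected, and their summed level was 173335 to 183559 normalised counts at 30 h and 60929 to 70057 at 72 h. Summed markers of epithelial cells were at 3.90 to 10.2 and of leukocytes at 7.11 to 15.8 over both groups, with KRT5, KRT14, SFTPC, CD3E and MS4A1 at 0. Of the endothelial markers CDH5 was at 0, and TEK, a receptor gene, made up most of the sum of 401 to 929. HRAS had 37142 to 37975 normalised counts at 30 h and 24773 to 30289 at 72 h, and reads of the construct and of the cell's own genes cannot be told apart. Whether replicates were separate cultures is not in the labels, and the spread behind the p-values may be technical.

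PDE5A, the cGMP-specific enzyme that is the target of sildenafil, and PDE7B, a cAMP-specific enzyme, were the members with the lowest levels at 72 h relative to 30 h. PDE4A and PDE4B, cAMP-specific enzymes, were higher at 72 h, PDE8A and PDE10A were lower by less than 2-fold, and PDE1C and PDE4D overlapped between the groups. PDE1A and PDE3A were near the limit of detection. Of the 10 members, 8 passed the filter on low values, each with at least 10 normalised counts in 5 or 6 libraries. In the fit of all genes 2 of these 8 had an adjusted p under 0.05 with a higher level at 72 h and 4 with a lower level, where 48.6% of all genes tested passed, 23.6% higher and 25.0% lower. The count of 6 became 4 without 30 h replicate B, 5 without any one library of 72 h, and 7 with no filter or with the replicate letter as a block. Because the members were picked with this contrast in view, nothing is read from these counts.

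**Figure D1:**
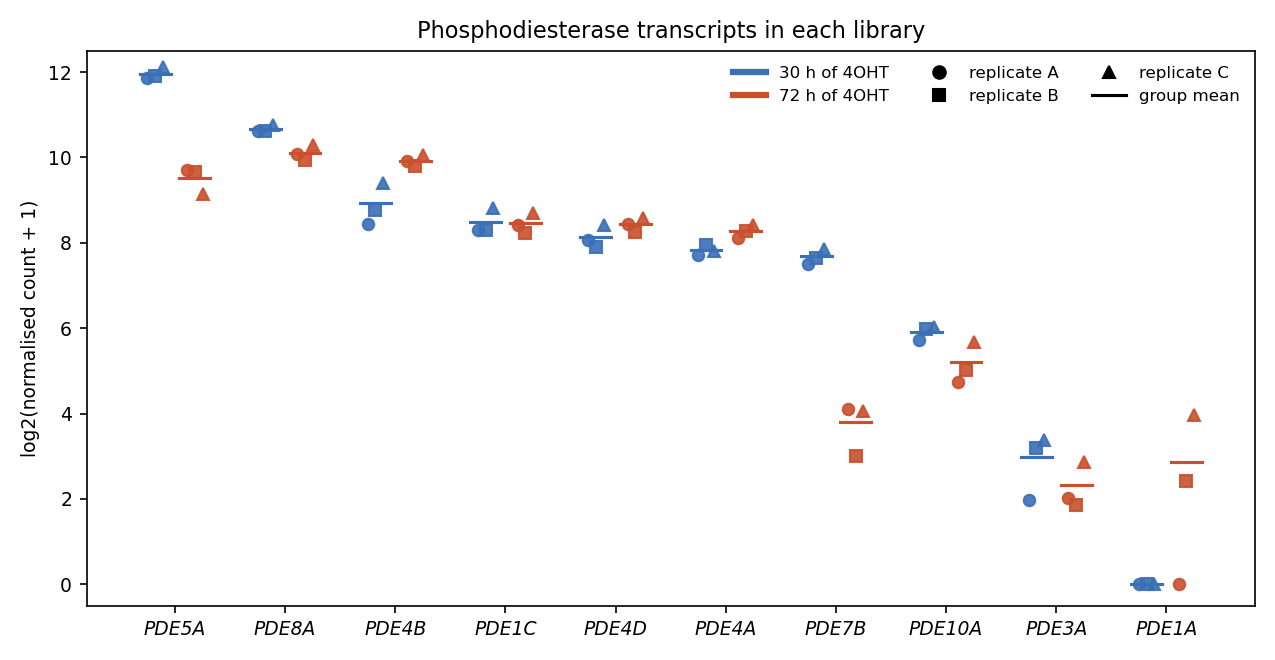
Level of each member in each library as log2(normalised count + 1), with 30 h in blue, 72 h in red, symbols for replicates A to C and lines at the log2 of the group mean plus 1, in order of the mean at 30 h. PDE5A and PDE7B show the widest gaps between the groups, with PDE5A at 3719 to 4461 normalised counts at 30 h and 564 to 834 at 72 h.

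PDE7B (ENSG00000171408.13, chromosome 6, 135851696 to 136195574 on GRCh38) had 181, 200.1 and 232 normalised counts in replicates A, B and C at 30 h. At 72 h it had 16.3, 6.98 and 15.7, from 16, 8 and 15 reads. Every library of 72 h was thus far below every library of 30 h. The means were 204 ± 25.6 and 13.0 ± 5.24 normalised counts (SD, n = 3), a log2 fold change of -3.95 ± 0.29 (SE), or 15.5-fold lower. Among all genes tested, 7 had a lower log2 fold change. The exons of PDE7B share 452 bases with AL138828.1 on the opposite strand, and those of PDE5A share 542 with AC093752.1. How the counting treated strand is not stated, so reads of such pairs cannot be told apart.

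PDE5A (ENSG00000138735.15, chromosome 4, 119494395 to 119628991) had 3719, 3817 and 4461 normalised counts at 30 h. At 72 h it had 834, 809 and 564. It was the member with the most reads at 30 h, and the library with the highest value at 30 h and the one with the lowest at 72 h were both replicate C. The means were 3999 ± 403 and 736 ± 149 normalised counts (SD, n = 3), a log2 fold change of -2.46 ± 0.16 (SE), or 5.49-fold lower, and 109 of the genes tested had a lower log2 fold change. In bulk RNA, fewer cells with a transcript and less of it per cell cannot be told apart.

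PDE8A (chromosome 15, 84980440 to 85139145) encodes a cAMP-specific enzyme of high affinity. Its normalised counts were 1575, 1564 and 1731 at 30 h and 1082, 984 and 1259.7 at 72 h. The groups did not overlap, with replicate C the highest at both times. The log2 fold change was -0.56 ± 0.09 (SE), from 1623 ± 93.2 to 1109 ± 139.6 normalised counts (SD, n = 3). The change of its mean was -31.7%, beside -93.6% for PDE7B, which cleaves the same substrate.

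PDE10A (chromosome 6, 165327287 to 165986603), which cleaves both nucleotides and is best known from the striatum, was a low transcript. It had 51.7, 62.0 and 64.3 normalised counts at 30 h and 25.5, 31.4 and 50.3 at 72 h. The gap between the groups was narrow, because replicate C at 72 h lay just under replicate A at 30 h. The log2 fold change was -0.76 ± 0.25 (SE). Over the alternatives tried it ran from -1.03 to -0.56. Its exons share 528 bases with antisense LINC00602.

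The PDE4 family holds cAMP-specific enzymes inhibited by rolipram and roflumilast, and 2 of its genes, PDE4A and PDE4B, were higher at 72 h without overlap. PDE4B (ENSG00000184588.17, chromosome 1, 65792514 to 66374579), the form known for its role in inflammatory cells, had 349, 433 and 680.2 normalised counts at 30 h and 961, 891 and 1069 at 72 h. All libraries of 72 h were above those of 30 h, and replicate C at 30 h stood apart from the other libraries of its group. The log2 fold change was 1.05 ± 0.25 (SE), or 2.07-fold, from 487 ± 172 to 974 ± 89.6 normalised counts (SD, n = 3), and 657 of the genes tested had a higher one. Over the alternatives the log2 fold change of PDE4B was 0.84 to 1.32.

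PDE4A (ENSG00000065989.15, chromosome 19, 10416773 to 10469631) had 209.6, 248 and 221 normalised counts at 30 h and 277, 307 and 339 at 72 h, again without overlap. Its log2 fold change was 0.44 ± 0.11 (SE), a 1.36-fold higher level. PDE4D (chromosome 5, 58969038 to 60522120), the form with the most transcript starts, had 267, 239.8 and 341 at 30 h and 346, 306 and 382 at 72 h. For PDE4D the groups overlapped, because replicate C at 30 h was above replicate B at 72 h, and the log2 fold change was 0.30 ± 0.14 (SE). PDE4C, the family's remaining gene, did not pass the filter, with 1 read in each library of 30 h and 8, 4 and 10 at 72 h.

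PDE1C and PDE1A encode phosphodiesterases that calcium and calmodulin switch on. PDE1C (chromosome 7, 31751179 to 32299329), known from proliferating smooth muscle cells, had 312, 313 and 452 normalised counts at 30 h and 341, 301 and 416 at 72 h. The groups overlapped widely, and replicate C was the highest library at both times. Its log2 fold change was -0.02 ± 0.17 (SE), between -0.14 and 0.16 over the alternatives. PDE1A (chromosome 2, 182140036 to 182523192) had no read in any library of 30 h and 0, 5 and 14 reads at 72 h. A count of 0 allows up to 3 reads in a library, by counting error alone, and 1 library of 72 h was also at 0. The log2 fold change of 5.09 that the authors' deposited table lists for PDE1A rests on those reads of 2 libraries.

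PDE3A (chromosome 12, 20369245 to 20684381) encodes a phosphodiesterase that cGMP inhibits, known from heart, platelets and vascular muscle. It had 3, 8 and 9 reads at 30 h and 3, 3 and 6 at 72 h, too few to pass the filter. Its close relative PDE3B, which is no member, had 27.1 ± 5.00 normalised counts at 30 h and 28.7 ± 8.18 at 72 h (SD, n = 3), with limma adjusted p = 0.865.

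**Figure D2:**
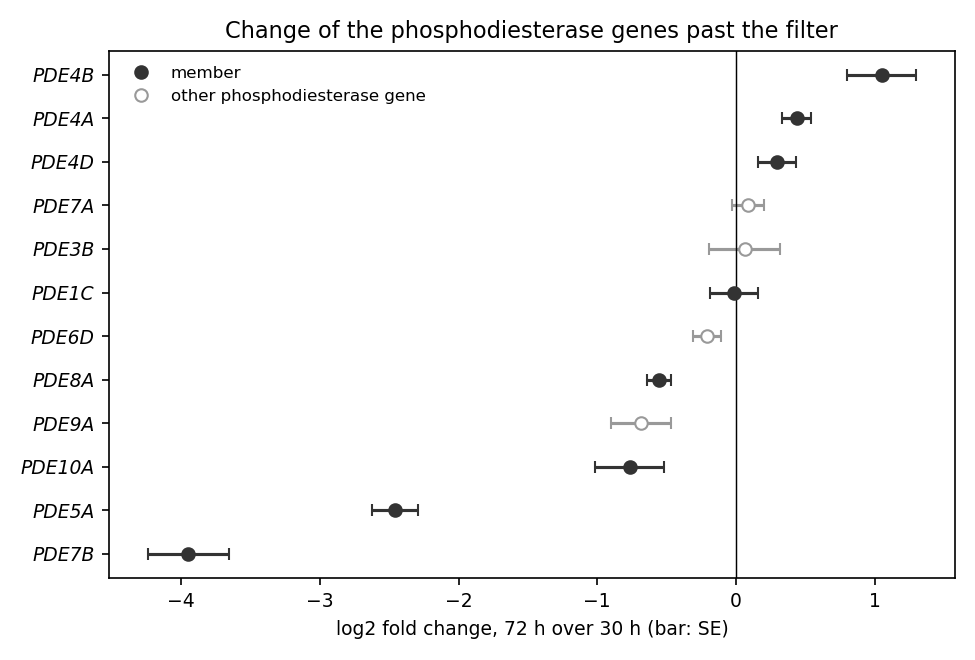
Log2 fold change of 72 h over 30 h, on the log2(normalised count + 1) scale, with its SE from limma, for the 8 members past the filter (filled) and the 4 other phosphodiesterase genes past it (open). PDE7B at -3.95 and PDE5A at -2.46 lie far left of the rest, and PDE4B at 1.05 is the furthest to the right.

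For 6 of the 8 members the libraries of both groups did not overlap, 2 with 72 h above and 4 with 72 h below, while this held for 59.2% of all genes tested, 29.3% above and 29.9% below. Replicate C was the highest of its group in 7 of 8 members at 30 h and in 6 of 8 at 72 h, against 38.0% and 36.4% of all genes tested. It was the highest at both times for 5 of 8 members (PDE1C, PDE4B, PDE4D, PDE8A and PDE10A), against 17.2% of all genes. The difference between replicate C and the mean of A and B, in log2 units, was 0.81 for PDE4B and 0.53 for PDE1C at 30 h, and 0.81 for PDE10A at 72 h. PDE5A went 0.24 up at 30 h and -0.54 at 72 h on the same scale. Both libraries of replicate C stood away from A and B along the second principal component of all genes, which held 6.99% of the variance.

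To compare levels between genes, normalised counts were divided by the length of all annotated exons of each gene in GENCODE 29. Among the members, PDE5A stood first on this scale at 30 h with 409 ± 41.2 normalised counts per kb (SD, n = 3), followed by PDE8A with 206 ± 11.8 and PDE4B with 56.4 ± 19.9. PDE7B with 34.4 ± 4.31, PDE4A with 34.1 ± 2.95 and PDE1C with 26.0 ± 5.85 per kb came next, and neighbours among these overlapped in their libraries. PDE4D followed with 17.3 ± 3.20 and PDE10A with 2.69 ± 0.31 per kb, and PDE3A and PDE1A came last. Among the members at 72 h, PDE8A was first with 140.6 ± 17.7 per kb, then PDE4B with 113 ± 10.4, PDE5A with 75.3 ± 15.2 and PDE4A with 46.3 ± 4.66, without overlap between neighbours, though the lowest library of PDE8A (124.8) and the highest of PDE4B (123.7) nearly met. PDE1C with 25.5 ± 4.24 and PDE4D with 21.1 ± 2.32 overlapped, as did PDE7B with 2.19 ± 0.88 and PDE10A with 1.62 ± 0.59. The order depends on the length used, since the exon union is long for genes with many transcripts, at 22.022 kb for PDE10A and 16.308 kb for PDE4D. With the longest coding transcript instead, a choice made after the data were seen, PDE5A was still first at 30 h and PDE8A at 72 h, while PDE7B moved from rank 4 to rank 8 at 30 h among all phosphodiesterases.

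Summed over the 21 genes for catalytic phosphodiesterases, the level per kb was 841 ± 88.4 at 30 h and 478 ± 31.0 at 72 h (SD, n = 3), and the 10 members made up 93.5% and 89.3% of it. PDE5A held 48.8%, 48.7% and 48.4% of this sum in replicates A, B and C at 30 h and 17.9%, 18.5% and 11.3% at 72 h. PDE4B held 5.18%, 6.24% and 8.35% at 30 h and 23.4%, 23.0% and 24.2% at 72 h. As normalised counts per kb the cGMP-specific genes summed to 399, 409 and 476 at 30 h and 94.0, 97.2 and 71.7 at 72 h. These values are relative to the rest of each library and are not amounts per cell. The cAMP-specific genes summed to 353, 364 and 427 per kb at 30 h and 352, 325 and 401 at 72 h, with overlap between the groups. On this relative scale the larger cAMP-specific share at 72 h thus went with a smaller total and not with a higher cAMP-specific level. As shares, the cAMP-specific genes made up 45.3% ± 0.10 at 30 h and 75.0% ± 3.16 at 72 h, and the cGMP-specific genes 50.9% ± 0.32 and 18.5% ± 3.97. With the longest coding transcript as length these shares were 51.5% and 78.3% for cAMP and 44.6% and 15.8% for cGMP, in the same direction. Within the PDE4 family PDE4B took 51.3% ± 7.03 at 30 h and 62.2% ± 1.14 at 72 h. As the shares derive from the contrast that chose the members, they are a description of it on another scale, and RNA shares say nothing of enzyme activity.

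**Figure D3:**
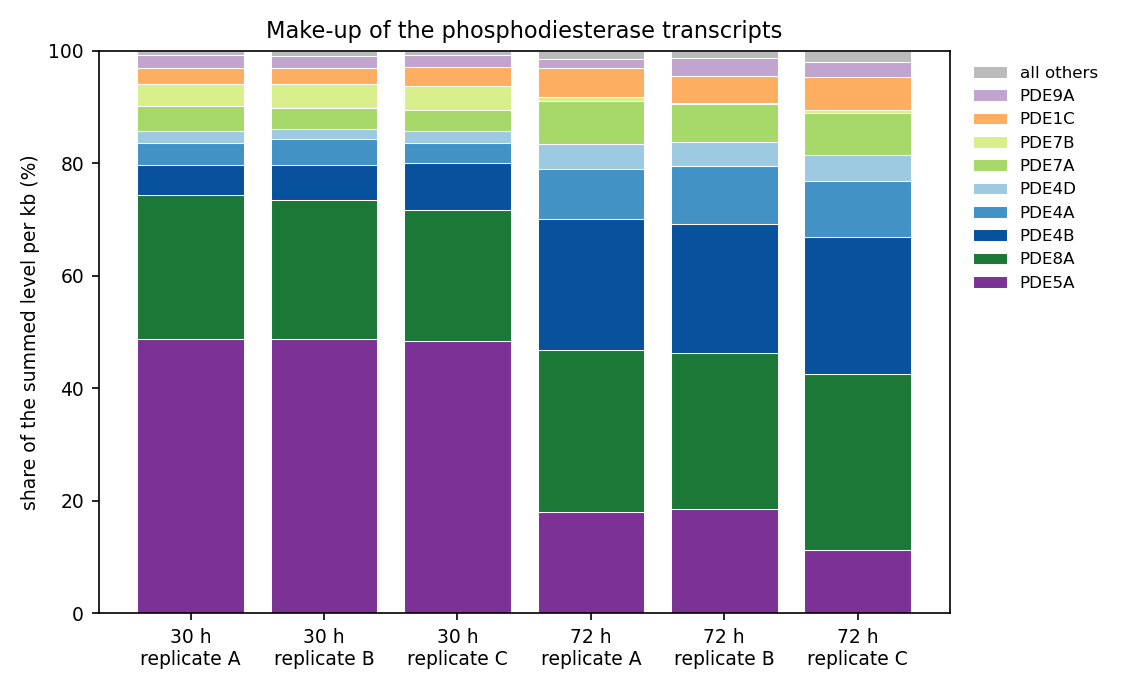
Share (%) of each gene in the summed level per kb of 21 catalytic phosphodiesterase genes, 1 bar for each library, with genes outside the 9 named ones pooled as all others. PDE5A fills about the same part of each bar at 30 h (48.4% to 48.8%) and 11.3% to 18.5% at 72 h, where PDE4B fills 23.0% to 24.2%.

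Each member has several annotated transcript starts, apart from PDE3A with 1, and gene counts do not say which start was used. GENCODE 29 lists 15 starts of coding transcripts for PDE4D, 10 for PDE4B, 8 for PDE10A, 6 each for PDE1C and PDE4A, 5 each for PDE1A and PDE5A, 4 for PDE8A and 3 for PDE7B. Long and short PDE4 enzymes, which differ in how they respond to ERK and protein kinase A, come from such starts and were not separated here. RefSeq promoters (GRCh38.p14) were matched for all 10 members, 1 start for each gene, and for PDE3A, PDE4D and PDE10A that start lies well inside the gene, 202834, 25834 and 323362 bases from its outermost end. The 250 bases before each start were searched on both strands for TGACGTCA, the full cAMP response element (CRE) bound by CREB, for its core TGACG, which the full element contains on both strands, and for TGANTCA, the site of AP-1.

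The full CRE was found before 1 of 10 members, PDE7B, and before 1.77% of 27305 RefSeq promoters. The core was found before PDE4A and PDE7B, against 21.7% of all promoters, and the AP-1 site before PDE3A and PDE4D, against 6.60%. The promoters below belong to the member with the lowest log2 fold change and to both with a higher level and no overlap, PDE4A and PDE4B. They run 5′ to 3′ on the plus strand from base -250 to base -6 before the RefSeq start, with the CRE core on either strand in capitals. They lie at chr6:135851451-135851695, chr19:10416523-10416767 and chr1:65792260-65792504.
PDE7B: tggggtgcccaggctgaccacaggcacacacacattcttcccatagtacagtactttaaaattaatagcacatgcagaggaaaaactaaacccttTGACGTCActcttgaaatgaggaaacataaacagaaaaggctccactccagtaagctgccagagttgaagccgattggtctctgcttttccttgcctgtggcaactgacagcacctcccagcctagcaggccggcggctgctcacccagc
PDE4A: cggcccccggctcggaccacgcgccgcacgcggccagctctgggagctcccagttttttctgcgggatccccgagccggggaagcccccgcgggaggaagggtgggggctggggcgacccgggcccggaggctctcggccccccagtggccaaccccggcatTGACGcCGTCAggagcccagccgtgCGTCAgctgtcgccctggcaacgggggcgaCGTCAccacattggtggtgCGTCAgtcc
PDE4B: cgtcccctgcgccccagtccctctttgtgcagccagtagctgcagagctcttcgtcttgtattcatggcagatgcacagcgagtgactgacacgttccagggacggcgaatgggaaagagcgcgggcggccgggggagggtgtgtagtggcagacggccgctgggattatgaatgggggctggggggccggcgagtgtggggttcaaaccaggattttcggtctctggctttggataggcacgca
PDE7B holds 1 full element, TGACGTCA, from base -155 to base -148. PDE4A holds 5 copies of the core between base -88 and base -10, of which 1 is on the plus strand, and none is part of a full element. PDE4B holds neither the core nor the AP-1 site in this window. A match is a description of the letters and not of binding. The members that share higher values at 72 h, PDE4A and PDE4B, thus share none of these letters here, and GC content was 74.0% before PDE4A, 62.4% before PDE4B and 50.8% before PDE7B, with a median of 58.0% over all promoters.

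The genes most like PDE7B across the 6 libraries, by Pearson correlation of log2(value + 1) and as a description only, were NR2C2, NEGR1 and RAPGEF2. They lay at r = 0.9998, 0.9987 and 0.9983, with log2 fold changes of -0.36, -1.05 and -0.66. Those most like PDE4B were TNFRSF21, NDNF and IL24 with r = 0.9994, 0.9990 and 0.9988 and log2 fold changes of 0.84, 3.48 and 1.81. Such values are common where libraries fall into separate groups, since 851 genes had r over 0.95 with PDE7B and 467 with PDE4B.

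Of 14 further phosphodiesterase genes, 4 passed the filter, 1 fell, 0 rose and 3 did not pass the test. PDE9A, the cGMP-specific enzyme of highest affinity, fell from 98.5 ± 6.06 to 62.8 ± 18.1 normalised counts (SD, n = 3), a log2 fold change of -0.68 with limma adjusted p = 0.024. That call was lost without any one library of 30 h (adjusted p = 0.0598 without A, 0.0597 without B and 0.0574 without C) and without 72 h replicate A (0.0525), with 0.0010 as the lowest over the alternatives. PDE7A, the close relative of PDE7B, had 244 ± 19.7 normalised counts at 30 h and 260.5 ± 32.8 at 72 h, or 0.09 on the log2 scale (adjusted p = 0.567). PDE6D, which carries prenylated proteins such as RAS and is no catalytic subunit, had 253 ± 17.7 and 219 ± 19.7 with adjusted p = 0.113. Of the 10 genes that did not pass the filter, PDE6C and PDE6H had no read in any library.

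Over all 110 genes listed for the cyclic nucleotide pathways, these 14 included, 72 passed the filter, of which 18 rose, 22 fell and 32 did not pass, with edgeR 17 and 22. That is 55.6% called, beside 48.6% of all genes tested, and the median log2 fold change was 0.05 against 0.01 for all genes. The lists were chosen with earlier results of these data known. The counts of single lists below stand beside the same 48.6%, and nothing is read from them.

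**Figure D4:**
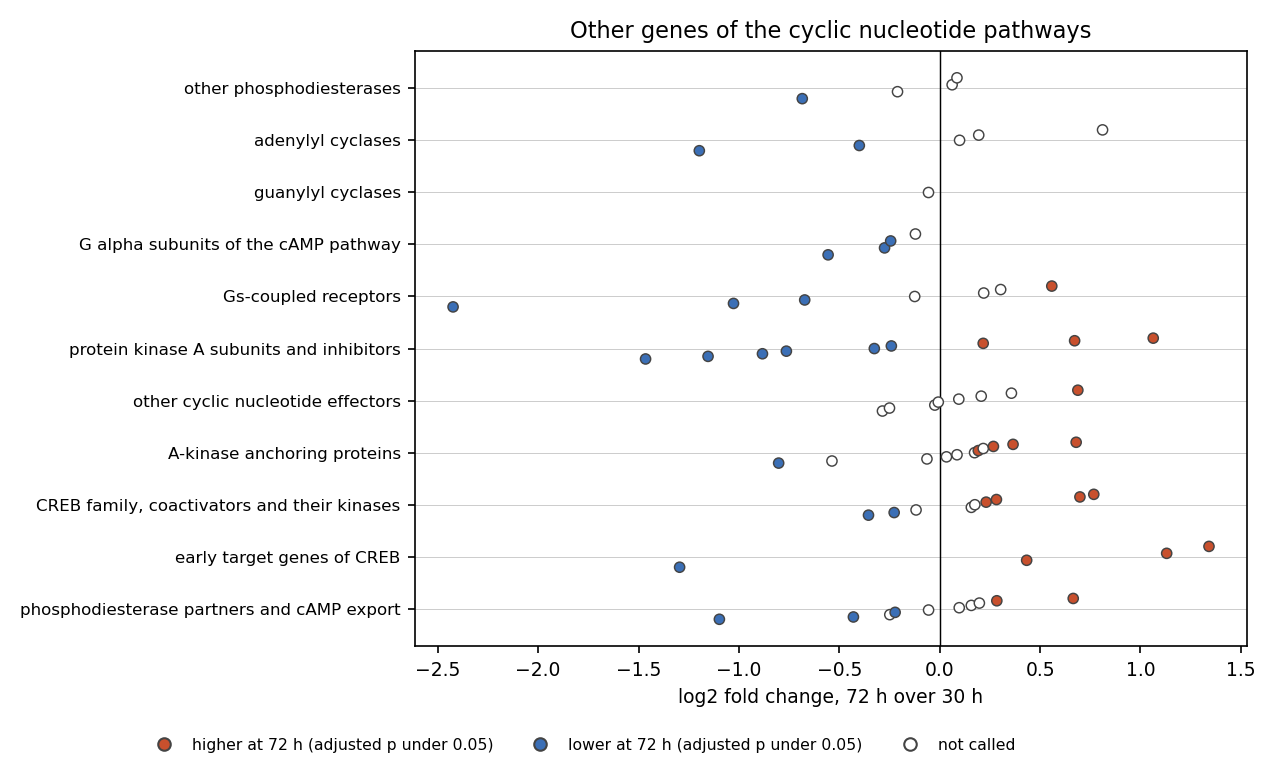
Log2 fold change of 72 h over 30 h for the 72 pathway genes tested, 1 point for each gene and 1 line for each of 11 lists. Red marks genes higher and blue genes lower at 72 h with a limma adjusted p under 0.05, and open points did not pass. The protein kinase A list has 3 red and 6 blue points and the list of early CREB targets 3 and 1, with no open one in either. Of all genes tested 48.6% were called.

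Of 5 adenylyl cyclases tested 2 fell, 0 rose and 3 did not pass, so 40.0% were called beside 48.6% of all genes tested. The median log2 fold change of these 5 was 0.10. ADCY9 fell from 711 ± 42.3 to 311 ± 43.0 normalised counts (SD, n = 3), a log2 fold change of -1.20 with limma adjusted p = 1.79e-05, and ADCY3 from 438 ± 26.3 to 332 ± 21.1 with adjusted p = 0.00287. Of 4 G protein alpha subunits 3 fell. GNAS, which encodes the stimulatory subunit, fell by 0.56 on the log2 scale (adjusted p = 2.89e-05), and the inhibitory subunits GNAI2 and GNAI3 fell by 0.24 and 0.27. Antisense reads could enter some of these counts, since exons of ADCY3 share 1488 bases with CENPO, those of GNAS 1127 with GNAS-AS1 and those of GNAI3 1339 with GNAT2, all on opposite strands. The only guanylyl cyclase that passed the filter, the natriuretic peptide receptor gene NPR2, differed by -0.06 on the log2 scale (adjusted p = 0.629). Below the filter and not tested, GUCY1A2 had 1 read in each library of 30 h and 13, 8 and 14 at 72 h. GUCY1B3, also below it, had 13, 4 and 6 reads at 30 h and 14, 9 and 8 at 72 h. Both were named after their values were seen.

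Of 7 Gs-coupled receptors tested 1 rose and 3 fell. PTGER2, a receptor of prostaglandin E, fell from 284, 220.5 and 238 normalised counts in replicates A, B and C to 114, 98.5 and 154, a log2 fold change of -1.03 with limma adjusted p = 0.000914. PTGER4, the second such receptor, had 166, 184 and 158 at 30 h and 229.9, 194 and 346 at 72 h, so that the libraries did not overlap. The rise was 0.56 on the log2 scale (adjusted p = 0.0451). That call was lost without 30 h replicate A (0.117), B (0.0760) or C (0.129) and without 72 h replicate A (0.0785) or C (0.0580), with 0.129 the highest over the alternatives. CALCRL, a receptor for calcitonin gene-related peptide and adrenomedullin, had 12, 13 and 23 reads at 30 h and 4, 1 and 2 at 72 h. It reached 10 normalised counts only in the 3 libraries of 30 h, so it passed the filter through the group where it was high. Its log2 fold change of -2.42, counted above among those that fell, is therefore a description only. Over the 11 alternatives in which it was fitted it ran from -2.83 to -1.52.

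Every one of the 9 genes of protein kinase A subunits and inhibitors that passed the filter was called, 3 higher and 6 lower, by limma and by edgeR. Of all genes tested 48.6% were called by limma and 48.8% by edgeR, and the list was chosen with earlier results known. Both catalytic subunits fell. PRKACB had 3149, 3386 and 4664 normalised counts at 30 h and 1642, 1559 and 1762 at 72 h, with no overlap. Its log2 fold change was -1.15 (limma adjusted p = 0.000951), and that of PRKACA was -0.33 (adjusted p = 0.00257). The regulatory subunits were divided. PRKAR2B rose from 266 ± 33.5 to 565 ± 138 normalised counts (SD, n = 3), PRKAR1B by a log2 fold change of 0.67 and PRKAR1A by 0.22, while PRKAR2A, named after its value was seen, fell by 0.24. PRKAR1A missed the threshold (adjusted p = 0.0512) once 30 h replicate A was left out. All 3 genes of the peptide inhibitors of the kinase fell, with log2 fold changes of -1.46 for PKIB, -0.88 for PKIG and -0.76 for PKIA.

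Of 8 other effectors tested 1 rose and 0 fell. RAPGEF4, the gene of EPAC2, rose from 78.5 ± 3.14 to 128 ± 19.1 normalised counts (SD, n = 3) with limma adjusted p = 0.00298. PRKG1, a gene of a cGMP-dependent kinase, had 612 ± 49.5 and 608 ± 42.1, or -0.01 on the log2 scale (adjusted p = 0.954). PRKG2, another such gene, named after its value was seen, had 590 ± 112 and 482 ± 77.7. Its log2 fold change was -0.29 (limma adjusted p = 0.195). Among 11 anchoring proteins of protein kinase A, 4 rose, 1 fell and 6 did not pass. AKAP12 (gravin) rose from 3121 ± 349.7 to 4995 ± 497 and AKAP8 and AKAP11 rose by 0.37 and 0.27 on the log2 scale, while AKAP7 fell by 0.80. AKAP10 rose by 0.19 with adjusted p = 0.0359, a call lost without each library in turn (0.0512 to 0.130). DESeq2 (0.125) and the fit with no filter also lost it.

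Of 9 genes of the CREB family, its coactivators and their kinases 4 rose, 2 fell and 3 did not pass. CREB1 had 549 ± 29.7 and 619.8 ± 20.3 normalised counts (SD, n = 3) with limma adjusted p = 0.0564. CREM, whose inducible form ICER represses CREB targets, fell by 0.35 on the log2 scale (adjusted p = 0.00269), and the coactivator gene CRTC1 rose by 0.70 (adjusted p = 0.000663). The salt-inducible kinases, which hold the coactivators in the cytoplasm, rose with log2 fold changes of 0.77 for SIK1, 0.28 for SIK2 and 0.23 for SIK3, and CRTC3 fell by 0.23. SIK1 has a near-identical copy, SIK1B, and reads may be split between them. These 4 calls had adjusted p = 0.0193 to 0.0448, and each was lost when single libraries were left out. For SIK1 they were every library but 30 h replicate C (0.0662 to 0.132), for SIK2 the same libraries (0.0594 to 0.128), for SIK3 replicates A and B of 30 h and A and C of 72 h (0.0708 to 0.0849), and for CRTC3 replicates A and B of 30 h and B of 72 h (0.0600 to 0.0708). DESeq2 also lost SIK1 (0.206), SIK3 (0.0630) and CRTC3 (0.0844). Without a filter SIK1 (0.119) and CRTC3 (0.0703) were lost, and SIK1 was lost with quantile normalisation (0.0683) and the replicate block (0.0573).

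All 4 early targets of CREB that passed the filter were called, in both directions. NR4A3 rose from 62.8 ± 22.0 to 155 ± 17.9 normalised counts (SD, n = 3) and PER1 from 132 ± 9.25 to 179 ± 18.4, while NR4A1 fell from 208 ± 44.1 to 84.3 ± 18.2. Their limma adjusted p were 0.0015, 0.0124 and 0.000567. NR4A2 was at the threshold, with a log2 fold change of 1.13 and adjusted p = 0.0499. By edgeR it had adjusted p = 0.0534, and leaving out 30 h replicate A (0.120) or B (0.128), or 72 h replicate A (0.103) or C (0.121), lost the call. It was also lost with a pseudocount of 5, with no filter and with TMM scaling. That makes 8 of 15 alternatives, with 0.164 as the highest adjusted p.

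Of 10 partners of phosphodiesterases and exporters of cAMP 2 rose, 3 fell and 5 did not pass. CALM2 and CALM3, which encode calmodulin, the activator of PDE1 enzymes, fell. CALM2 went from 14993 ± 1748 to 6997 ± 669 normalised counts (SD, n = 3; limma adjusted p = 4.34e-05), and CALM3 fell by 0.43 on the log2 scale. ARRB1, the gene of beta-arrestin 1, which recruits PDE4D to receptors, rose by 0.67 (adjusted p = 0.0024). ABCC5, an exporter of cyclic nucleotides, rose by 0.28 (adjusted p = 0.0184), a call lost without replicate A or B of either time (0.0565 to 0.0791).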

How the data were processed

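The submitters' processing notes name Trimmomatic 0.35, STAR 2.5.1b, DESeq2 1.18.1 and the build GRCh38 (hg38). Which counter, annotation and strand setting were used is not stated there. The deposited table gives a signal value for each of 58219 genes in every library, namely reads over a DESeq2 size factor. In each library 100% of values were whole multiples, within 0.01, of the smallest value above 0, so whole reads were recovered, and totals ran from 13221152 to 15703544. A further deposited column is the authors' own log2 fold change. Floors cover counting error only, as duplicates cannot be told from separate molecules.

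The 13315 genes reaching 10 normalised counts in 3 or more libraries were fitted with limma 3.58.1 (trend and robust) in R 4.3.3 on log2(value + 1), with Benjamini-Hochberg adjustment over all of them and a threshold of 0.05. No replicate block was used. Alternatives were edgeR 4.0.16 and DESeq2 1.42.0 on the recovered reads, pseudocounts of 0.5 and 5, no filter, a filter of 50, 2 other scalings, a replicate block and leaving out each library. Replicates differed by more than sampling noise (chi-square per degree of freedom 3.34 to 16.3, against 109.7 to 161 between groups).

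The members and lists were chosen with earlier results of these data known. The naming rule took all members, other phosphodiesterases past the filter, up to 6 called genes of each list with the largest change, GNAS, PRKACA, PRKAR1A, CREB1, CREM, PRKG1, HRAS and ESR1, and the 3 genes most correlated with the highest and the lowest member. Results for some of these genes are not reported here. ESR1 had 7848 to 8134 normalised counts at 30 h and 5584 to 6187 at 72 h. As for HRAS, its reads from the construct and from the cell's own gene cannot be told apart. Coordinates are those of the deposited table. Lengths and overlaps come from GENCODE 29, in which PDE10A, alone among the members, has another version and other coordinates than in the deposited table, so its length is approximate, and promoters come from RefSeq (GRCh38.p14).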

Additional observations from a re-analysis of the deposited data

How the results depend on the processing

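Over 15 alternatives each, the log2 fold changes of the 8 members tested moved in all 120 values by less than 1 SD of single libraries, pooled over both groups, though some moves exceeded the SD of 1 group alone. Of these values 4 changed sign, all of PDE1C. The count of called members was 6 of 8, beside 48.6% of all genes tested. It was 7 without a filter on low values and with the replicate block. When single libraries were left out it ran from 4 to 6, with 4 without 30 h replicate B. The members were picked with this contrast in view, so their calls in this section describe the settings and are no test of the members. PDE10A was not called without replicate B or C of 30 h or replicate A or B of 72 h. PDE4B was not called without 30 h replicate B or 72 h replicate C, and PDE4D was called without 30 h replicate C. Without a filter PDE4D was called and PDE4B was not. PDE1A was then also called, on 0, 5 and 14 reads at 72 h and no read at 30 h. For all genes the count was 6472 and ran from 5121 to 6835, and for pathway genes 40 and from 28 to 40, each within 1.5 times. Of 697 values of 47 other genes taken by the naming rule, 636 stayed on the same side of the threshold, 60 lost the call and 1 (CREB1 with quantile normalisation, adjusted p = 0.0293) gained it. None of the 623 values of the 42 called genes changed sign, while 6 of 74 values of the 5 uncalled genes did (PDE3B and PRKG1). The replicate letters were treated as names only. Once group means were subtracted, the libraries of 1 letter correlated at 0.00696 for A, 0.172 for B and 0.185 for C, and only B and C correlated best with their own letter. The replicate block gave 6723 calls among all genes, 7 members (PDE4D added) and 39 pathway genes, and PTGER4 and SIK1 lost their calls with it (adjusted p = 0.0608 and 0.0573). At 8 to 16 reads at 72 h the depth limits the precision of PDE7B, and it leaves PDE1A and PDE3A without a usable comparison.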
